A study of Mus musculus with 52 samples.

Results

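Clock genes were followed at 11 promoter windows of 10 genes, out of 27815 windows of 24194 gene symbols, in chromatin immunoprecipitation of RNA polymerase II (Pol II). The windows are 600 bp wide and surround annotated transcription starts in mm9. Every window of Per1, Per2, Per3, Cry1, Cry2, Nr1d1, Dbp, Nfil3, Bhlhe40 and Arntl was taken, and Per1 had 2 separate windows. All 11 had Pol II above 0 in all 31 libraries and passed the filter on low values, which kept 13908 windows for testing.

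The cells were primary cultured neurons of CD1 mice, treated with DMSO as the vehicle or with U0126, an inhibitor of the kinase MEK that activates ERK. Pol II was profiled in neurons left unstimulated for 1 h or 6 h in either drug, and after 1, 10, 30, 60, 180 and 360 min of neuronal activity. That gives 16 groups of 2 libraries, except that U0126 at 180 min has 1. The labels do not name the stimulus or the brain region, and do not say that the replicates are separate cultures, so the p-values reflect library spread alone, which may be technical. H3K27ac, the acetylated histone mark found on active regulatory elements, was profiled at 0, 10, 30 and 60 min in both drugs, with 2 libraries in each of 8 groups. Activity of 1 to 60 min is compared with unstimulated 1 h and later activity with unstimulated 6 h, always within a drug.

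The mammalian clock is a transcriptional loop. ARNTL, also called BMAL1, pairs with CLOCK and binds E-box sequences to switch on the Per and Cry genes, whose proteins then repress that pair. NR1D1 represses Arntl, while DBP activates and NFIL3 represses genes with D-box elements. Per1 is also known as a gene that cyclic AMP and calcium signals induce through CREB, which is how light reaches the clock in the suprachiasmatic nucleus.

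Promoter sequences were available from RefSeq (GRCm38.p6) for 8 of the 10 genes, each from 250 bases before to 50 bases after a start. The 3 printed here belong to both Per1 starts and to Nfil3, the promoters whose Pol II results are described most fully. Capitals mark matches to the motifs searched, read 5′ to 3′ on the gene's strand.
Per1 upstream start, chr11:69098699-69098998, plus strand: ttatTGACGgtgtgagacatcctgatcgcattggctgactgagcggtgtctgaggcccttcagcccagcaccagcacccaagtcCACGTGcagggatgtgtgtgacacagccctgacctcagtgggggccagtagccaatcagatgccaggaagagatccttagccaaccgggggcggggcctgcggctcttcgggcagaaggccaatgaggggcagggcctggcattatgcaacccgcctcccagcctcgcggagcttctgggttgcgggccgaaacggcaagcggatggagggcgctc
Per1 downstream start, chr11:69099902-69100201, plus strand: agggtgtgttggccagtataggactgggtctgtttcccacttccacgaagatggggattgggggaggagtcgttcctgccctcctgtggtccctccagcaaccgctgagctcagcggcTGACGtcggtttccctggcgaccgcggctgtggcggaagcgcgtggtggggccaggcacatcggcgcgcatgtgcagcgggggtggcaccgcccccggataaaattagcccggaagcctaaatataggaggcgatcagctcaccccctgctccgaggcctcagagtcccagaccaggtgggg
Nfil3, chr13:52980990-52981289, minus strand: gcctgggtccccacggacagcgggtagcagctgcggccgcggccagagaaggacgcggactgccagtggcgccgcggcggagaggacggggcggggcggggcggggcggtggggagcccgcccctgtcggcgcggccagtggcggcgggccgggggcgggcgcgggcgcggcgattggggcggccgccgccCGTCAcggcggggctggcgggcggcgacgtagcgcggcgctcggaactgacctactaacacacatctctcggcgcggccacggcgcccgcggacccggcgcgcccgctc

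Both strands were searched for the cyclic AMP response element TGACGTCA, its shorter core TGACG, which the full element contains, the E-box CACGTG and the D-box TTANGTAA. Among 10 promoters of the 8 genes, of which the 2 of Arntl overlap, 0 held the full element, against 1.79% of all 32851 promoters of that length. The core was in 5 of them (both Per1 starts, Cry1, Cry2 and Nfil3), against 20.8% of all promoters. The E-box was in the upstream Per1 promoter, 166 bases before the start, and in the Cry1 promoter, against 7.15% of all. Per3 was the one gene with a D-box, which it held at 2 places, against 2.32% of all. A match describes letters in the window and is not a binding site, and a missing match says nothing of sequence farther from the start.

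The densities below are the authors' normalized Pol II densities, and the depth behind them is unknown. Changes are log2 fold changes of density plus a pseudocount of 0.146, which understates the change of low windows, in libraries centred on their medians. They were tested in limma with Benjamini-Hochberg adjustment over the 13908 windows at an adjusted p under 0.05. The authors had already scaled the values to control starts that activity does not regulate. With the added centring the median of all tested windows in vehicle stood at 0.34 for 30 min, 0.30 for 60 min and 0.23 for the mean of 10, 30 and 60 min, against 0.03, 0.04 and 0.03 with the values as deposited. Changes relative to that median are therefore given too. Library sums of density ran from 15567.6 to 18507.2, and the share of windows at 0 from 0.723% to 11.5%, the highest in vehicle 30 min replicate 1. All 8 neuronal marker genes were among the tested windows, as were 2 of 4 excitatory and 3 of 3 inhibitory neuron genes. Of the other lists, 3 of 6 astrocyte, 4 of 6 oligodendrocyte, 0 of 6 microglial and 0 of 6 endothelial or fibroblast genes were. In limma, 0 of the 20 marker windows tested were called in vehicle for the mean of 10 to 60 min. Of these 20, 1 had an unadjusted p under 0.05 in limma. The summed density of the neuronal markers was 10.2 and 10.7 in vehicle at unstimulated 1 h and 9.79 to 13.8 over the 6 vehicle libraries of 10 to 60 min, and the part of cell makeup in the results was not tested. Fos, an immediate-early gene used as a check of activity, rose in vehicle. Its densities were 2.00 and 2.30 unstimulated and 11.4 and 7.32 at 30 min, and the log2 fold change was 2.33 (SE 0.351, limma adjusted p = 0.000113).

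Per1 encodes a repressor of the loop, and its 2 windows lie 602 bp apart. The upstream one (mm9 chr11:68912157-68912757) is among the promoters the deposited table classes as delayed activity-regulated, so its rise is not independent evidence. The downstream one (chr11:68913359-68913959) is classed as other. Over all libraries the upstream window had a mean density of 1.22 and the downstream window of 1.02.

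At the upstream Per1 window, density in vehicle was 0.491 and 1.13 in the unstimulated 1 h libraries and 0.857 and 0.903 after 1 min. It was 1.91 and 2.43 at 10 min, 1.59 and 2.02 at 30 min, and 1.69 and 1.75 at 60 min. All 6 libraries of 10 to 60 min lay above both unstimulated ones. At 180 min it was 1.15 and 0.888 and at 360 min 0.945 and 1.42, against 0.354 and 0.865 in unstimulated 6 h libraries, which did not overlap either later group. How many of all windows or H3K27ac regions separate in this way was not counted, here or below. Such separation is therefore not shown to be particular to clock genes. At 30 min in vehicle 77.1% of all tested windows had a log2 fold change above 0.

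At the downstream Per1 window, the vehicle libraries had 0.538 and 0.75 when unstimulated for 1 h, 0.816 and 0.997 at 1 min, and 1.25 and 1.65 at 10 min. The values reached 1.82 and 2.33 at 30 min and were 0.84 and 1.39 at 60 min. Here too every library of 1 to 60 min was above both unstimulated 1 h libraries. The highest mean density was at 30 min (2.07 ± 0.359, SD, n = 2), and at the upstream window at 10 min (2.17 ± 0.362, SD, n = 2). On the centred log2 scale the upstream values were 2.11 and 2.37 at 10 min and 2.37 and 2.19 at 30 min. Their mean was then higher at 30 min, so the difference in peak time depends on the scale and was not tested.

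Both Per1 windows rose at 30 min in vehicle. The upstream log2 fold change was 1.42 (SE 0.361, limma adjusted p = 0.0345) and the downstream one 1.81 (SE 0.403, limma adjusted p = 0.0172), or 1.07 and 1.46 above the median of all windows. They were the 2 clock windows called among the 11, beside 1.65% of all windows, 230 of 13908, called at that time. With the values as deposited the downstream window remained called (limma adjusted p = 0.0411) and the upstream one had an adjusted p of 0.0677, and 0 clock windows were called after quantile normalization (adjusted p of 0.231 upstream and 0.149 downstream). Of all calls at 30 min, 228 were higher and 2 lower with centring, 200 and 27 with the values as deposited. Without unstimulated 1 h replicate 1, the adjusted p was 0.421 upstream and 0.317 downstream. Without 30 min replicate 1 it was 0.922 and 0.638, and without 30 min replicate 2 the count was 7 clock windows beside 2481 of all windows.

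In the fit without a replicate block, no clock window was called in vehicle at 1 min (0% of all windows), 10 min (0.036%), 60 min (0.158%), 180 min (0%) or 360 min (0%). At an unadjusted p under 0.05 in limma the counts among the 11 were 0, 4, 6, 2 and 1, beside 1.88%, 5.82%, 14.7%, 3.01% and 2.28% of all windows. The upstream Per1 window had log2 fold changes of 1.38 at 10 min and 1.31 at 60 min, then 0.66 at 180 min and 0.94 at 360 min. The downstream window had 1.04, 0.91, 0.82 and 0.77 at those times. With replicate as a block, clock windows were called at 10 and 60 min, and the counts are given with the other settings.

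The mean of 10, 30 and 60 min in vehicle was higher than unstimulated 1 h at the upstream Per1 window by 1.37 (SE 0.294, limma adjusted p = 0.0137) and at Per2 by 1.29 (SE 0.303, limma adjusted p = 0.0264). These 2 of 11 calls stand beside 0.69% of all windows, 96 of 13908. The median over the 11 clock windows was 0.69, against 0.23 over all tested windows, and 9 of the 11 had a value above 0, beside 73.5% of all windows. The downstream Per1 window had 1.25 with an adjusted p of 0.0534 in limma. Quantile normalization ended both calls (adjusted p of 0.0594 for Per1 and 0.051 for Per2), and of all calls it gave 47 higher and 7 lower where centring gave 95 and 1. Without unstimulated 1 h replicate 1 neither was called (log2 fold changes of 0.84 and 0.88), and Per2 was also not called without 10 min replicate 1, 30 min replicate 1 or 60 min replicate 2. Without 30 min replicate 2, 5 clock windows were called beside 1215 of all windows.

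Per2, a partner of Per1 in the repressor complex, is likewise classed by the authors as delayed activity-regulated. Its window (chr1:93355605-93356205) had densities of 0.242 and 0.517 in unstimulated 1 h vehicle libraries and 0.664 and 0.607 at 1 min. It had 0.94 and 1.03 at 10 min, 0.755 and 0.787 at 30 min, 0.98 and 1.18 at 60 min, and 1.08 and 0.981 at 180 min. The groups of 1 to 60 min did not overlap the unstimulated 1 h group, and the 180 min libraries were above the 0.365 and 0.60 of unstimulated 6 h. By 360 min the densities of 0.525 and 0.637 overlapped that group. Its largest log2 fold change among single times was 1.53 at 60 min (SE 0.372), which missed the threshold in limma (adjusted p = 0.0729).

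**Figure D1:**
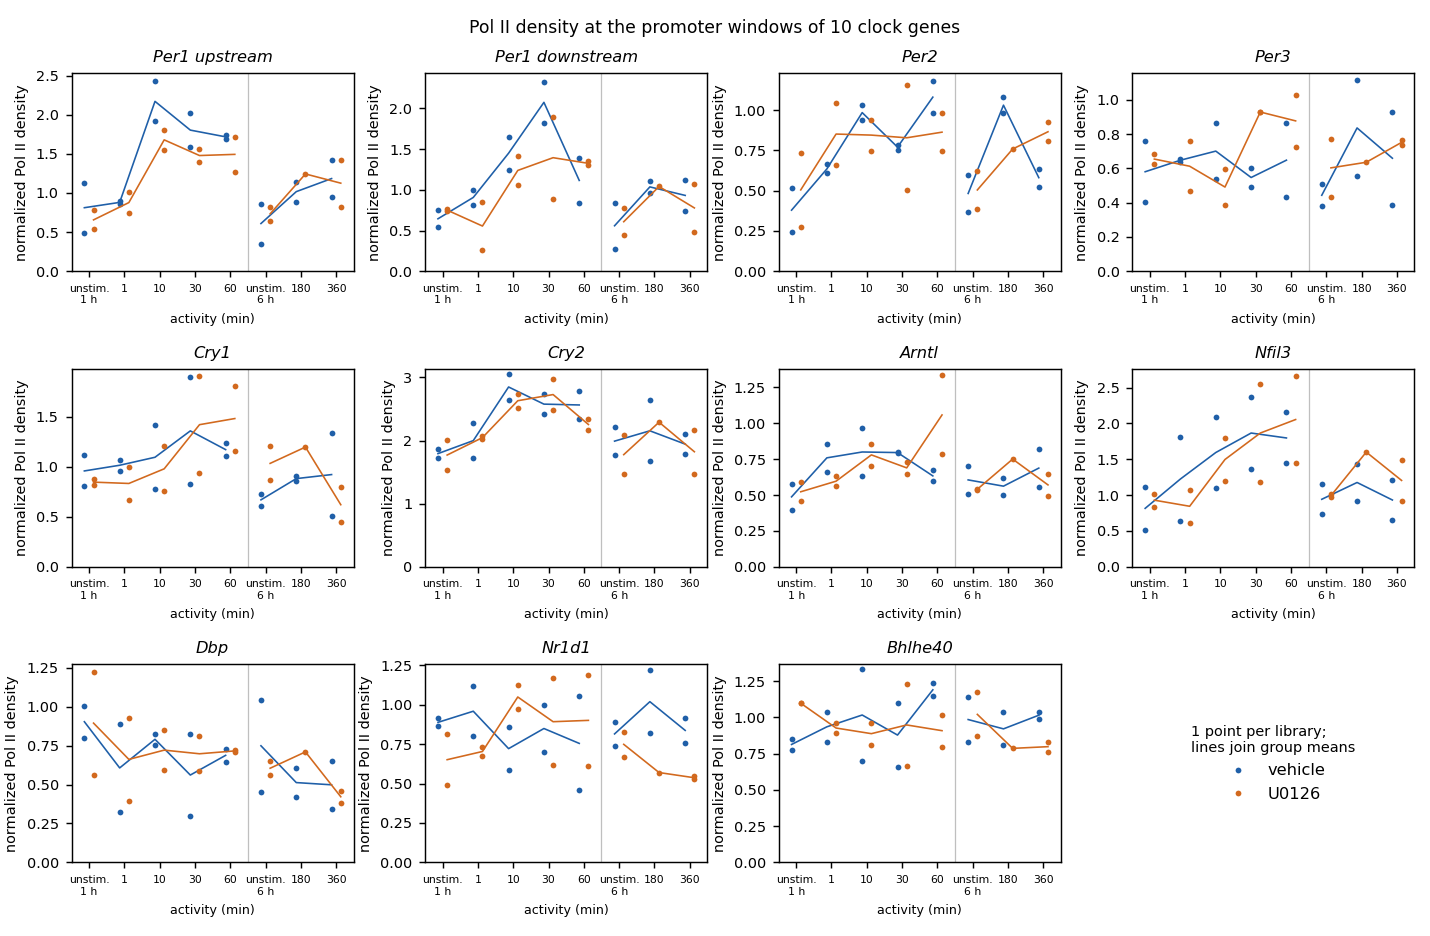
Normalized Pol II density (vertical axis, from 0) at the 11 clock gene windows against minutes of activity, with unstimulated 1 h and 6 h groups in front of the times compared with them. Each point is 1 library and lines join group means; the upstream Per1 window is above its unstimulated 1 h values at 10 to 60 min in both drugs.

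Nfil3, the D-box repressor, had the second highest mean density of the 11 windows, 1.32 (chr13:53076108-53076708). Its vehicle densities were 1.12 and 0.514 unstimulated, 2.09 and 1.10 at 10 min, 2.37 and 1.36 at 30 min, and 2.15 and 1.44 at 60 min. The 10 min group overlapped the unstimulated one and the 30 and 60 min groups did not. Replicate 1 was the higher library in 15 of 15 groups, and within each replicate number density rose by 10 min, from 1.12 to 2.09 and from 0.514 to 1.10. The log2 fold change was 1.41 at 30 min and 1.21 for the mean of 10 to 60 min (SE 0.354). Neither was called in limma without a replicate block (adjusted p of 0.0698 and 0.0795). In U0126 the densities were 1.02 and 0.837 unstimulated and 2.55 and 1.18 at 30 min, where the groups did not overlap.

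Cry2 had the most Pol II of the clock windows, with a mean density of 2.20, above 96.9% of windows (chr2:92273926-92274526). It encodes a cryptochrome repressor. Its vehicle densities were 1.87 and 1.72 unstimulated, 3.06 and 2.64 at 10 min, 2.74 and 2.42 at 30 min and 2.35 and 2.78 at 60 min, with no overlap. The mean log2 fold change was 0.73 (SE 0.263) and did not pass in limma (adjusted p = 0.14). Cry1, the other cryptochrome gene, had densities of 1.11 and 0.804 unstimulated and 1.90 and 0.824 at 30 min, which overlapped, and a mean log2 fold change of 0.45 (SE 0.349).

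Arntl, the activator of the loop, had densities of 0.577 and 0.398 unstimulated and 0.798 and 0.795 at 30 min in vehicle, without overlap. Its mean log2 fold change of 0.69 (SE 0.28) did not pass in limma (adjusted p = 0.192). Per3, a Per family member, had 0.401 and 0.76 unstimulated and 0.602 and 0.492 at 30 min, and a mean log2 fold change of 0.31 (SE 0.33).

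None of the remaining 3 windows, of Nr1d1, Dbp and Bhlhe40, was called in any activity comparison. Nr1d1 had a mean log2 fold change of -0.01 in vehicle (SE 0.316), or -0.24 relative to that median. Dbp had -0.19 (SE 0.338), or -0.42 relative to it, with densities of 0.801 and 1.01 unstimulated and 0.297 and 0.825 at 30 min. Bhlhe40, a repressor that competes at E-boxes, had 0.45 (SE 0.287), or 0.22 relative to the median. Its window overlaps one assigned to 0610040F04Rik, so their Pol II cannot be told apart.

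With MEK inhibited, no clock window was called at 1 min (0%), 10 min (0%), 30 min (0.0935% of all windows), 60 min (0%), 180 min (0%) or 360 min (0%), nor for the mean of 10 to 60 min (0.0503%). At an unadjusted p under 0.05 in limma the counts among the 11 at those times were 0, 1, 4, 2, 0 and 0, beside 1.37%, 3.42%, 9.34%, 4.59%, 4.01% and 1.73% of all windows. The mean had 3 of the 11, beside 5.84% of all, the upstream Per1 window, Per2 and Nfil3. The upstream Per1 window had densities of 0.535 and 0.778 in unstimulated 1 h U0126 libraries, 1.55 and 1.81 at 10 min, 1.56 and 1.40 at 30 min and 1.27 and 1.72 at 60 min. As in vehicle, all 6 libraries of 10 to 60 min were above both unstimulated ones. The mean log2 fold change was 1.06 (SE 0.294, limma adjusted p = 0.407), and with the values as deposited 1.09, which was called (limma adjusted p = 0.0415). Without U0126 30 min replicate 2, 2 clock windows were called at 30 min, beside 886 of all windows.

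The downstream Per1 window in U0126 had 0.743 and 0.758 unstimulated, 1.06 and 1.41 at 10 min, 0.89 and 1.90 at 30 min and 1.30 and 1.35 at 60 min, again with no overlap. Its mean log2 fold change was 0.65 (SE 0.329, limma adjusted p = 0.865). Per2 in U0126 had 0.276 and 0.734 unstimulated, 0.749 and 0.942 at 10 min, 0.502 and 1.16 at 30 min and 0.981 and 0.746 at 60 min, so that the 30 min group overlapped. Its mean log2 fold change was 0.64 (SE 0.303, limma adjusted p = 0.835).

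**Figure D2:**
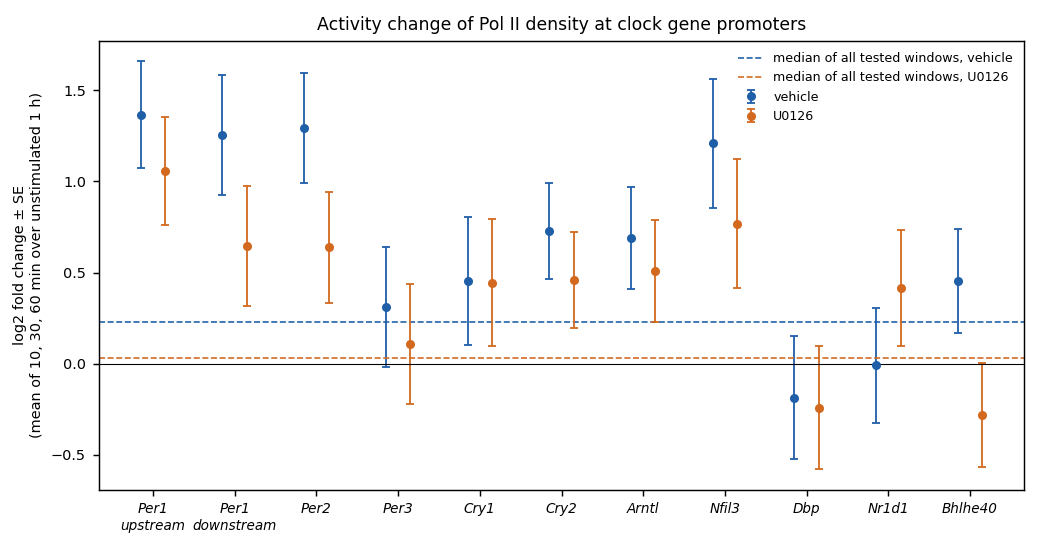
Log2 fold change of Pol II density (vertical axis, ± SE) for the mean of 10, 30 and 60 min over unstimulated 1 h at each clock window, for vehicle and U0126. Dashed lines mark the median of all tested windows, 0.23 in vehicle and 0.03 in U0126; both Per1 windows, Per2 and Nfil3 have the largest values in vehicle, 1.21 to 1.37, and Dbp is below 0 in both.

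U0126 was compared with vehicle directly. No clock window was called for the mean of 10 to 60 min (0.00719% of all windows, 1 of 13908), nor in either unstimulated group or at any of 1, 10, 30, 60, 180 and 360 min (0% each). At an unadjusted p under 0.05 in limma the count among the 11 was 0 in all of these comparisons. For the mean, the clock windows ran from -0.30 at the upstream Per1 window (SE 0.208) to 0.22 at Nr1d1 (SE 0.224), with a median of -0.01 against -0.04 over all tested windows. The change with activity in U0126 minus that in vehicle was called at no clock window (0% of all windows; 418 windows and 0 of the 11 at an unadjusted p under 0.05 in limma). With centring it ran from -0.73 at Bhlhe40 to 0.42 at Nr1d1, with a median of -0.27 over the 11, while the median of all windows was at -0.21. At Per2 it was -0.66 (SE 0.429), at the downstream Per1 window -0.61 (SE 0.465) and at the upstream one -0.31 (SE 0.416). With the values as deposited the medians were -0.04 over the 11 and 0.02 over all windows, and after quantile normalization -0.07 and -0.01. Of the 11 clock windows, 1 was above 0 with centring and 5 with the values as deposited, so the negative tilt depends on the scaling. Vehicle calls and the absence of calls in U0126 therefore do not show that the clock windows responded differently to activity.

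Both drugs were also averaged, a comparison added after the data were seen. Activity of 10 to 60 min over unstimulated 1 h then gave 4 clock calls, beside 3.85% of all windows, 535 of 13908. They were the upstream Per1 window (1.21, SE 0.208, limma adjusted p = 0.000541), Per2 (0.97, SE 0.215, limma adjusted p = 0.00842), the downstream Per1 window (0.95, SE 0.233, limma adjusted p = 0.0165) and Nfil3 (0.99, SE 0.25, limma adjusted p = 0.0204). Cry2 and Arntl had 0.60 each (adjusted p of 0.059 and 0.0782 in limma), and Cry2 was called with the values as deposited (limma adjusted p = 0.0164). Of all calls, 512 were higher and 23 lower with centring and 193 and 113 after quantile normalization. Without unstimulated 1 h replicate 1 of vehicle, or of U0126, 0 clock windows were called, beside 31 and 26 of all windows.

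The 2 Per1 promoters were then compared with each other. The upstream window had more Pol II in 22 of 31 libraries, with a mean log2 difference of 0.23 ± 0.378 (SD, n = 31 libraries) and a range of -0.41 to 1.13. The starts in RefSeq lie 1203 bp apart and the deposited windows 1202 bp, in the same order. In vehicle the difference was 0.52 and 0.57 in the 10 min libraries, -0.19 and -0.18 at 30 min and 0.90 and 0.30 at 60 min, against -0.10 and 0.51 unstimulated. At 30 min both vehicle libraries had more Pol II downstream, and at 10 and 60 min all 4 had more upstream.

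No difference between the promoters in their change with activity passed the adjusted threshold. Upstream minus downstream was 0.11 for the mean of 10 to 60 min in vehicle (SE 0.305, 95% interval -0.53 to 0.76, limma adjusted p = 0.96), a ratio of fold changes between 0.691 and 1.69. In U0126 it was 0.41 (SE 0.305, 95% interval -0.23 to 1.06, limma adjusted p = 1.00). The adjustment ran over 2436 pairs of separate windows of 1 gene, of which 0.123% were called in vehicle and 0% in U0126. The single times in vehicle gave 0.34 (10 min), -0.39 (30 min) and 0.39 (60 min), each with SE 0.374, and none was called. The largest single-time value was 0.85 at 1 min in U0126, whose 95% interval of 0.06 to 1.64 lies above 0 (unadjusted p = 0.0365 in limma) but which was not called (limma adjusted p = 1.00). Two-sided exact permutation tests of the 6 libraries of 10 to 60 min against the 4 unstimulated ones of 1 h and 6 h gave p = 0.581 in vehicle and p = 0.495 in U0126, where 210 splits allow no p below 0.00952. Leaving out vehicle unstimulated 1 h replicate 1 turned the vehicle difference to -0.20.

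**Figure D3:**
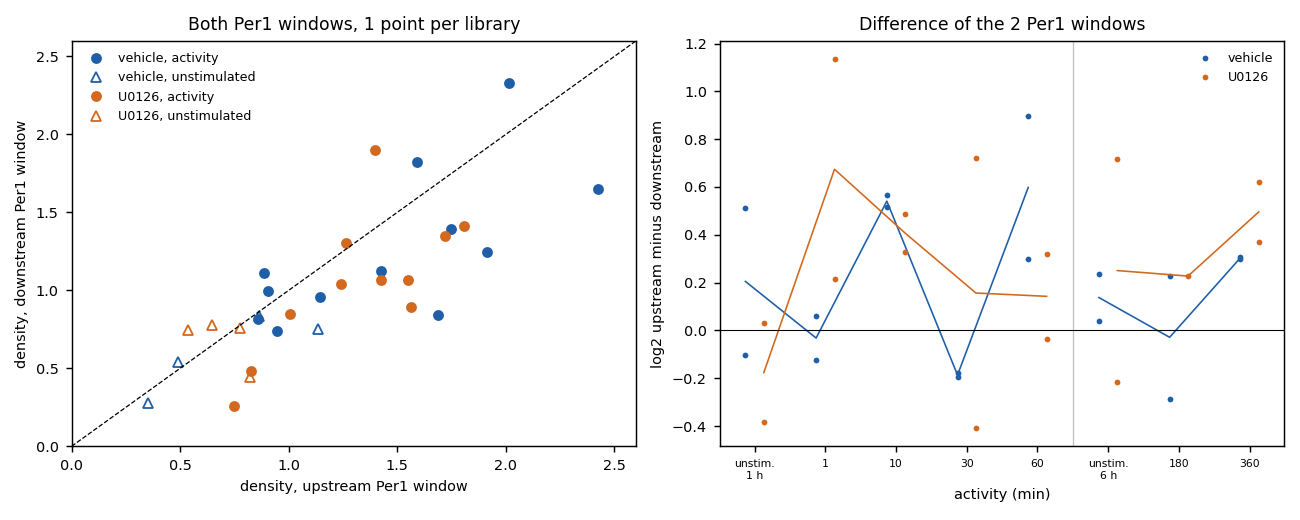
Left, normalized Pol II density at the downstream against the upstream Per1 window, 1 point per library, with the line of equality dashed; 22 of 31 points lie below it. Right, the log2 difference upstream minus downstream by minutes of activity, with lines joining group means; both vehicle libraries are above 0 at 10 min and below 0 at 30 min.

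The windows most like each Per1 promoter over the 16 group means of log2 density were found among all tested windows of other genes. For the upstream promoter they were Rheb (Pearson r = 0.954), Mir212 (0.945), Fosb (0.942), Klhl24 (0.938) and Wdr90 (0.932). For the downstream promoter they were Hspa4 (0.946), Mir150 (0.935), Selk (0.928), Junb (0.925) and Egr4 (0.923), with no gene on both lists. The 2 Per1 windows had r = 0.874 with each other, and the upstream one had 0.861 with Cry2, 0.837 with Nfil3, 0.763 with Per2, 0.156 with Nr1d1 and -0.03 with Dbp. These values come from the same libraries and carry no test.

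Of 22 further genes of the clock and its regulators, all were in the table, at 33 windows, and 26 windows of 20 genes were tested. One window was called in vehicle at 30 min, Rorb, which encodes a receptor of the family that activates at the elements NR1D1 represses, with a log2 fold change of 1.57 (SE 0.383, limma adjusted p = 0.0282), beside 1.65% of all windows. Quantile normalization ended this call (limma adjusted p = 0.142). No window of this list was called for the mean of 10 to 60 min in vehicle, where its median was 0.22 against 0.23 over all windows, or in U0126; in limma 5 and 0 of the 26 had an unadjusted p under 0.05, beside 17.0% and 5.84% of all windows. The largest values for the mean in vehicle were 1.01 at Rorb (SE 0.313), 0.95 at a Rora window (SE 0.314) and 0.70 at Csnk1d, a kinase that phosphorylates PER proteins (SE 0.256). In U0126 the same windows had -0.17, 0.08 and 0.22, but they were picked for their size in vehicle. The change in U0126 minus that in vehicle was called at 0 windows of this list (0% of all windows). At an unadjusted p under 0.05 in limma it had 2 of the 26, beside 3.01% of all windows.

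H3K27ac was deposited for 940 enhancer regions, 17 of which had a clock gene as the nearest gene, 10 for Per1, 5 for Nfil3 and 2 for Per2. Without a replicate block, no region of the 940 was called in any of 10 comparisons of activity or drug at single times (0% each). H3K27ac signal was tested in limma as for Pol II. Of the 17, 0 at 10 min, 2 at 30 min and 3 at 60 min in vehicle had an unadjusted p under 0.05, beside 1.28%, 4.26% and 3.94% of all regions, and 0, 2 and 2 in U0126, beside 2.23%, 3.62% and 4.36%. The replicate numbers pair these libraries, and with replicate as a block these counts were 2, 3 and 5 in vehicle, beside 5.32%, 14.9% and 12.7% of all regions, and 1, 3 and 4 in U0126, beside 5.85%, 9.04% and 12.8%. After adjustment in the fit with replicate as a block, 1 of the 17 was called, Nfil3 region 4 at 60 min in U0126 (1.03, SE 0.233, limma adjusted p = 0.0436), beside 1.28% of all regions, 12 of 940. In vehicle at 60 min that fit called 7 of the 940 regions, all outside the 17.

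That Nfil3 region (chr13:53077580-53078880) is centred 1822 bp from the centre of the Nfil3 window. Its signal in vehicle was 1.31 and 1.36 unstimulated, 1.62 and 2.76 at 10 min, 2.34 and 2.61 at 30 min and 3.44 and 2.82 at 60 min. In U0126 it was 1.14 and 1.31 unstimulated and 2.92 and 3.39 at 60 min. In both drugs every library with activity was above both unstimulated ones. The log2 fold change of 0.97 at 60 min in vehicle had an adjusted p of 0.0822 in limma with the block.

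Regions 6 and 7 of Per1 lie at lower coordinates than its upstream window. Region 6 (chr11:68906450-68909430), centred 4517 bp before the centre of the upstream window, is listed by the authors at 815 bp from a Per1 start that has no Pol II window. It had vehicle signals of 2.13 and 1.96 unstimulated, 2.93 and 3.75 at 10 min, 3.69 and 3.43 at 30 min and 3.88 and 3.71 at 60 min. In U0126 it had 2.13 and 1.58 unstimulated and 3.51 and 4.97 at 60 min, again with no overlap. Region 7 (chr11:68910050-68912140), centred 1362 bp before the window, had 2.57 and 3.51 unstimulated and 3.42 and 6.31 at 60 min in vehicle, which overlapped. Within each replicate number the signal rose, from 2.57 to 3.42 and from 3.51 to 6.31. With replicate as a block, its log2 fold change at 60 min was 0.58 in vehicle (SE 0.319, limma adjusted p = 0.471). In U0126 it was 0.74 (SE 0.319, limma adjusted p = 0.366). For the mean of 10 to 60 min in the fit without the block, regions 6 and 7 had log2 fold changes of 0.69 (SE 0.253) and 0.58 (SE 0.546) in vehicle and 0.80 and 0.75 in U0126. The other 8 Per1 regions ran from -0.10 to 0.36 in vehicle, and the 2 Per2 regions, 45085 and 49095 bp from their window, had -0.70 and -0.40. The median over the 17 regions was 0.11, against 0.04 over all regions.

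**Figure D4:**
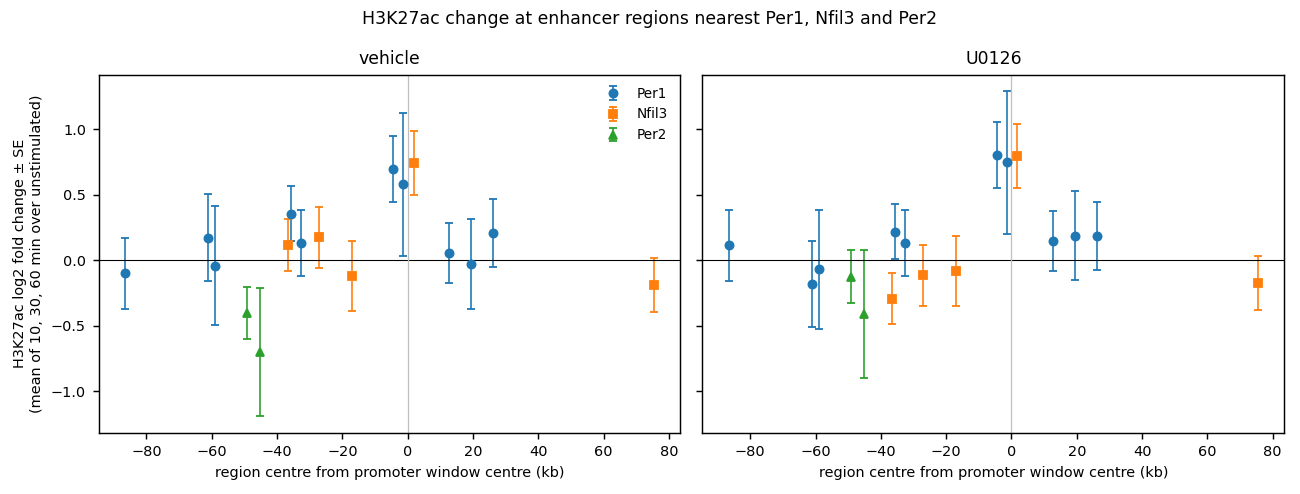
H3K27ac log2 fold change (vertical axis, ± SE) for the mean of 10, 30 and 60 min over unstimulated neurons, against the distance in kb of each region's centre from the centre of its gene's promoter window (the upstream window for Per1), positive toward higher coordinates. Per1 regions 6 and 7 and Nfil3 region 4, the 3 regions nearest a window, have values from 0.58 to 0.80 over both drugs.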

How the data were processed

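The Pol II file holds, per the file headers, normalized Pol II density, a signal value per 600 bp transcription start window that the authors deposited for 31 libraries. The H3K27ac file holds a deposited signal per enhancer region, with the authors' distance to the nearest gene; distances given here are to window centres unless called the authors', since some of their starts have no Pol II window. Per the submitters' processing notes, Bowtie2, SAMtools and bedtools were used with mm9; no source used here states versions or filters. Per the file headers, the authors scaled Pol II to control start sites that activity does not regulate; the scaling of H3K27ac is not stated. Chromatin was fixed with 1% formaldehyde, per the labels' protocols. The 5 input libraries were not analysed here. Read counts could not be recovered from the values, so depth is unknown and no counting interval is given.

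Values were taken as log2(density + 0.146), or log2(signal + 0.628) for H3K27ac; each pseudocount is percentile 25 of the positive values. Libraries were centred on their medians. The upper 50% of Pol II windows by mean density (0.282 or more) were tested, and all H3K27ac regions. One mean per group was fitted in limma 3.58.1 (R 4.3.3) with a trended prior, 15 residual degrees of freedom for Pol II and 8 for H3K27ac, with no block, and Benjamini-Hochberg adjustment over all features at 0.05. The Per1 promoters were compared by the difference of log2 values within a library, fitted over all pairs of separate windows of 1 gene that differed in some library, and by exact permutation. The fit was tested on simulated data. Alternatives were a pseudocount at percentile 10 or of 1, the upper 25% of windows or no filter, values as deposited, quantile normalization, a replicate block and leaving out each library. Figures used Python 3.11.15 and matplotlib 3.10.9.

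Same-numbered libraries deviated together for H3K27ac, where the correlation of deviations was 0.28 to 0.887 in all 28 pairs of groups, so replicate numbers pair the samples there. The clock genes, the lists and the tests were chosen with earlier results of these data known. All clock windows are described; of the wider list, called windows and the 3 largest changes are named, and 5 windows are named as most like each Per1 promoter. RefSeq promoters (GRCm38.p6) were used for sequence only and no coordinate was converted.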

Additional observations from a re-analysis of the deposited data

Results flagged for a closer look

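At 2 genes, on the median-centred log2 values, both libraries of a group lay on one side of the unstimulated pair in vehicle and on the opposite side in U0126, with the unstimulated 1 h group of each drug as the base; the opposite directions themselves were not tested, while the difference between the log2 fold changes was and did not pass. At Nr1d1, 10 min of activity gave -0.25 in vehicle and 0.50 in U0126, a difference of 0.744 (SE 0.548, limma adjusted p = 1.00). At Bhlhe40, where the deposited vehicle densities of 1.04 and 0.832 at 1 min overlapped the unstimulated ones, 1 min gave 0.14 and -0.27, a difference of -0.407 (SE 0.497, limma adjusted p = 1.00). At Bhlhe40, 60 min gave 0.74 and -0.35, a difference of -1.09 (SE 0.497, limma adjusted p = 0.905), or -0.73 with the values as deposited. The unstimulated 1 h densities of Bhlhe40 were 0.773 and 0.853 in vehicle and 1.10 and 1.10 in U0126, and the part of that base in the differences was not tested. How many of all tested windows lay on opposite sides in vehicle and U0126 in this way was not counted. These cases are therefore not shown to be particular to clock genes.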

How the results depend on the processing

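The counts of clock calls, the Per1 promoter differences and the H3K27ac count gave 23 results, the added average of both drugs included. Under other settings 343 of their 364 values kept the direction and the side of the threshold. For 24 further results outside that set, 350 of 400 values did so. With the values as deposited, 1 clock window was called at 30 min in vehicle and 1 for the mean of 10 to 60 min in U0126. After quantile normalization 0 were called at 30 min and 0 for the mean in vehicle. With the replicate block, 1 clock window was called at 10 min, 4 at 30 min, 3 at 60 min and 4 for the mean in vehicle, and 1 H3K27ac region. Same-numbered Pol II libraries deviated together at a correlation over 0.1 in 94 of 105 pairs of groups, with a median of 0.249 and a range of -0.062 to 0.509. Because the lowest was below 0, the numbers were not taken as pairing in the main fit, although most pairs of groups deviated together. For both drugs averaged the block gave 6 calls against 4, and it changed no other count of clock calls. Leaving out 1 library at a time gave 0 to 7 calls at 30 min in vehicle, 0 to 2 at 30 min in U0126, 0 to 5 for the mean in vehicle and 0 to 6 for both drugs averaged. The Per1 promoter difference in vehicle then ran from -0.20 to 0.42, reversing only without unstimulated 1 h replicate 1. A lone library left in a group was assumed to vary like the other groups. The cause of these changes was not tested. Over all windows, the settings that leave out no library gave from 21 to 1003 calls at 30 min in vehicle against 230, from 54 to 668 for the mean in vehicle against 96, and from 306 to 1041 for both drugs averaged against 535. They gave at most 32 at 10 min in vehicle against 5, 135 at 60 min against 22, 53 at 30 min in U0126 against 13, 74 for the mean in U0126 against 7, and 19 H3K27ac calls against 0. Depth is unknown, so it was not possible to say what counting error adds.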

Other observations

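The replicate numbers went with the level of some clock windows. Nfil3 had more Pol II in replicate 1 than in replicate 2 in 15 of 15 groups with 2 libraries, and Cry1 in 14 of 15. The downstream Per1 window had more in replicate 2 in 15 of 15 groups, and the upstream one in 12 of 15. Of all 13908 tested windows, 1.77% had the same replicate higher in all 15 groups. Among H3K27ac regions, Per1 regions 3 and 7 and Per2 region 2 were higher in replicate 2 in 8 of 8 groups. Per1 region 2 was higher in replicate 1 in 8 of 8. Of all 940 regions, 146 had replicate 2 higher in all 8 groups and 101 had replicate 1 higher, so this is not particular to the clock regions. What the numbers stand for is not given in the labels, and their part in the levels was not tested.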
